A study of Mus musculus with 12 samples.

Results

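The comparison described here is the lowering of Nfib by shRNA in the mouse small cell lung cancer line 16T. It was chosen by sample title and uses 4 of the 12 samples of the series: 2 libraries of 16T with the Nfib shRNA (16T-sh2) and 2 of 16T with the control shRNA (16T-shLuc). Of the 28112 features in the authors' deposited table, the 23226 that carry 1 gene name were used, and 14504 of these had an adjusted p in 16T. All 4 samples share the genotype Trp53-/-;Rb1-/-, the 2 tumor suppressor genes removed in this mouse model, and an Nfib high background, and they were grown as floating spheres in RPMI medium with serum. The one other comparison used is the same shRNA name against shLuc in KP1, a second line of that genotype and background, with 4 samples. The submitters call the 2 libraries of a group duplicates and do not say that they came from separate cultures, and the p-values therefore reflect no more than the spread between the samples sequenced. Each line is 1 tumor-derived line and 1 Nfib shRNA name is given, so an effect of lowering Nfib and any other effect of that hairpin cannot be told apart. The question the comparison addresses is which transcripts change when Nfib is lowered in a line that expresses much of it.

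Nfib encodes a nuclear factor I (NFI) transcription factor, a family that binds DNA as dimers at a palindromic site and takes part in lung and brain development. Small cell lung cancer is a neuroendocrine tumor whose cells make granins, peptide hormones and the machinery of regulated secretion. Hypoxia-inducible factors (HIFs) are transcription factors whose alpha subunit is destroyed when oxygen is sufficient, after hydroxylation by Egln enzymes and capture by Vhl. Their known targets include the enzymes of glycolysis, angiogenic factors and collagen-modifying enzymes.

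The authors deposited results of their fit and no values per library, so the value in each sample, the depth of each library and the number of libraries showing a direction are unknown here, and overlap between the groups cannot be given. Each gene has 1 mean normalized count over all libraries, which is not its level in 16T, and a log2 fold change with its SE, printed below as ±. Rose and fell are used of genes whose adjusted p from the authors was below 0.05. By that rule 6574 of 14504 genes changed in 16T, a share of 45.3%, and the shares that rose and fell were 20% (2907) and 25.3% (3667). A change of at least 1 on the log2 scale was rarer: 545 genes rose by that much (3.76%) and 378 fell (2.61%). Calls followed the level, from 15.3% of genes with a mean under 100 to 67.3% of those in the highest level class, and the exonic length, from 34.9% of the genes in the shortest class of 5 to 54.5% in the longest. The median log2 fold change of all genes tested was -0.05, and recentred on that median gene 3511 genes rose and 3013 fell, so which direction was the more frequent rests on the centring. In such bulk libraries, fewer cells of a type and less RNA per cell cannot be told apart.

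Nfib was lower in 16T with its shRNA, at -1.08 ± 0.035 on the log2 scale in the authors' deposited table (adjusted p = 2.56e-205), which is 2.12-fold lower. Its mean normalized count was 30668, over 11 exon intervals of chromosome 4 (82290173 to 82505779, mm10). The table's headings do not say which group is the numerator, and Nfib itself set the direction used here, which leaves it without value as a check on labels. Of the other NFI genes, Nfia, at 0.72 ± 0.13, rose and Nfix, at -0.35 ± 0.056, fell in the authors' deposited table. Both differed from KP1, where neither was called. The 7 neuroendocrine markers all had means of at least 5290 over all libraries, which do not give their level in 16T. Trp53 and Rb1 still had means of 411 and 6555 over all libraries, and the sources used here do not give which of their exons are deleted.

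Among genes with a mean of at least 100, complement C3, the E-cadherin gene Cdh1 and the tyrosine hydroxylase gene Th led the rises, and the genes further down included several for secreted and surface proteins. Muc2, a gel-forming mucin, rose by 3.29 ± 0.25 in the authors' deposited table at a mean normalized count of 251. Lox, the lysyl oxidase that cross-links collagen and a HIF target, had 3.23 ± 0.20 there. Chemokine genes were among them: the authors' deposited table gave 2.98 ± 0.15 for Cx3cl1, the membrane-bound fractalkine, and 2.98 ± 0.32 for Cxcl13, which attracts B cells. The Wnt ligand gene Wnt4 (2.96 ± 0.14) and the receptor tyrosine kinase gene Ret (2.91 ± 0.14) rose by similar amounts in the authors' deposited table. Inside the cell, rises in the authors' deposited table were those of Car8 (3.19 ± 0.12), related to carbonic anhydrases, Ndrg2 (3.14 ± 0.13), Rgs11 (3.01 ± 0.13), a regulator of G protein signalling, Padi3 (2.96 ± 0.32), an enzyme that converts arginine to citrulline, and Chst1 (2.86 ± 0.31), a sulfotransferase. The unnamed gene 9430021M05Rik (3.23 ± 0.19) rose as well in the authors' deposited table.

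Among falls of genes with a mean of at least 100, Vwa2 and Grp were in the largest 4. Further down, the authors' deposited table listed Sftpc, the alveolar surfactant protein C, at -2.07 ± 0.25, and Ltbp1, which binds latent TGF-beta, at -2.06 ± 0.11. Gli3, a transcription factor of Hedgehog signalling, fell by 2.05 ± 0.14 in the authors' deposited table (mean 697). Several falls were of surface and matrix genes. In the authors' deposited table these were the integrin alpha gene Itga8 (-1.92 ± 0.26), the protocadherin gene Pcdh19 (-1.87 ± 0.12), the extracellular protease gene Tll1 (-1.98 ± 0.14), the ectodysplasin receptor gene Eda2r (-1.96 ± 0.20) and Thsd7b (-1.90 ± 0.18). Cnr1, a cannabinoid receptor gene, had -1.89 ± 0.20 in the authors' deposited table and was not called in KP1. Syndig1, a synaptic membrane protein gene, and Casq1, a calcium-binding protein gene, had -2.01 ± 0.26 and -1.87 ± 0.25 in the authors' deposited table.

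**Figure D1:**
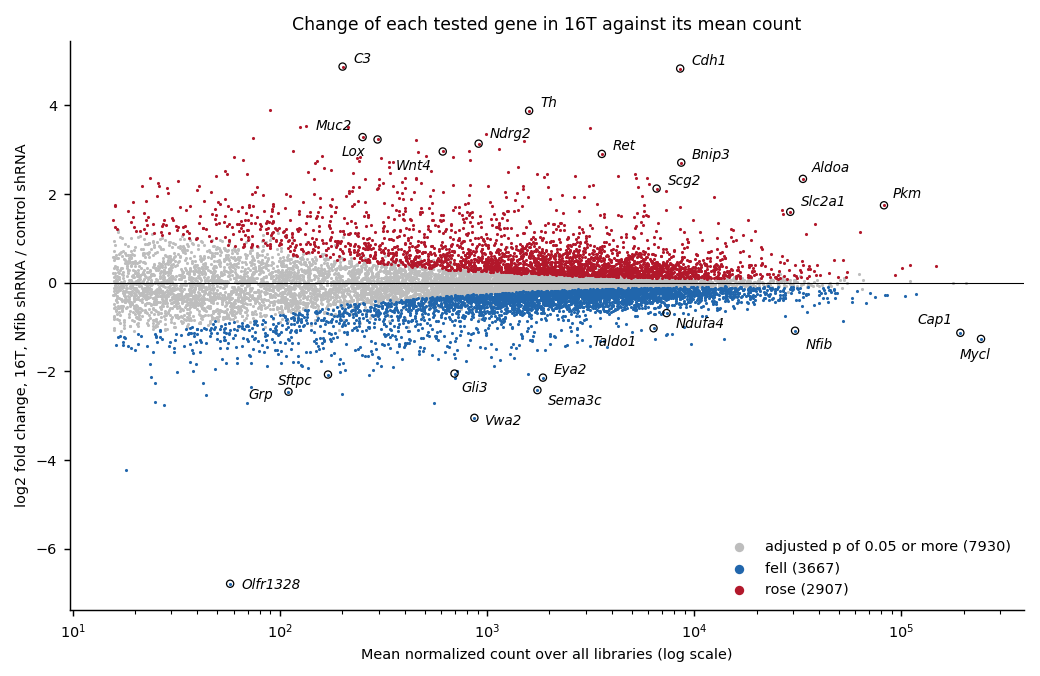
Each point is 1 of the 14504 genes tested, with its mean normalized count over all libraries on a log axis and its log2 fold change in 16T. Red points rose (2907), blue points fell (3667), and most of the circled genes are named in the text. The rises reach 4.88 (C3), and the points lowest on the plot are Olfr1328 (-6.79) and Slc17a1 (-4.22).

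Glycolysis, the pathway from glucose to pyruvate and lactate, had the largest share of rises among whole lists. Of its 25 genes tested, 21 rose and 1 fell (84.0% and 4%, beside 20% and 25.3% of all genes), with a median of 1.14 on the log2 scale, and 15 rose by at least 1. Genes rose at every step of the pathway. Glucose enters through Slc2a1, the GLUT transporter of most cells, which was at 1.60 ± 0.045 in the authors' deposited table (mean 29071), whereas the other transporter gene, Slc2a3, was not called (0.29 ± 0.32). All 9 genes from hexokinase to the triose phosphates rose: Aldoa, the aldolase, had the largest value, 2.34 ± 0.037, and Hk1 the smallest, 0.31 ± 0.04, in the authors' deposited table. The 3 phosphofructokinase genes, which set the committed step, stood at 1.71 ± 0.052 (Pfkp), 1.36 ± 0.047 (Pfkl) and 1.14 ± 0.081 (Pfkm) in the authors' deposited table, and Hk2, the inducible hexokinase, at 1.24 ± 0.11.

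The 6 genes from the triose phosphates to pyruvate all rose too. Their values in the authors' deposited table ran from 0.90 ± 0.08 for Eno2, the neuronal enolase, to 1.75 ± 0.028 for Pkm, the pyruvate kinase, at a mean of 82384. At the end of the pathway, the authors' deposited table gave 1.34 ± 0.034 for Ldha, which turns pyruvate into lactate, and 2.40 ± 0.065 for Slc16a3, which exports it. Ldhb, the subunit that favors the reverse reaction, was the 1 gene that fell (-0.49 ± 0.20, authors' deposited table), a call lost when the effects were recentred or a t distribution of 6 degrees of freedom was used. Pfkfb3, which makes the activator of phosphofructokinase, rose (0.80 ± 0.062, authors' deposited table), while Pfkfb1 and Pfkfb2 were not called.

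Of the 32 known HIF targets outside glycolysis that were tested, 25 rose and 1 fell (78.1% and 3.12%, beside 20% and 25.3% of all genes). Their median was 1.01, and 16 rose by at least 1. Among mitochondrial genes all 6 rose. They were led by the mitophagy receptor gene Bnip3, 2.71 ± 0.058 in the authors' deposited table, and included Pdk1 (2.15 ± 0.067), the kinase that shuts off pyruvate dehydrogenase. Vegfa, the main angiogenic factor, was 2.36 ± 0.077 in the authors' deposited table, whereas the secreted factor genes Adm (0.84 ± 0.49), Stc1 (0.23 ± 0.29) and Stc2 (0.13 ± 0.14) were not called. Of 6 genes of matrix hydroxylases and oxidases tested, 5 rose and 1 was not called. Beside Lox, the rises in the authors' deposited table were those of the prolyl hydroxylase genes P4ha2 (2.60 ± 0.098) and P4ha1 (2.37 ± 0.051) and the lysyl hydroxylase genes Plod2 (1.69 ± 0.15) and Plod1 (0.99 ± 0.063). Regulators among the targets included the repressor gene Bhlhe40 (1.61 ± 0.093) and the histone demethylase gene Kdm3a (0.99 ± 0.044) in the authors' deposited table, with Ankrd37 at 2.77 ± 0.14. A further 6 listed targets, Car9, Car12, Angptl4, Edn1, Cox4i2 and Slc4a4, were too low for an adjusted p.

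The oxygen-sensing genes themselves were split. Of the 4 HIF subunit genes tested, 2 rose, with a largest value of 1.21, and 1 fell. The 2 that rose are not reported one by one here. Hif1a, the oxygen-labile subunit, was not called (-0.09 ± 0.047, authors' deposited table), and Epas1, which encodes the related HIF-2 alpha subunit, had no adjusted p. Of the Egln hydroxylases, which are HIF targets as well as its brakes, Egln3 (1.39 ± 0.088) and Egln1 (0.82 ± 0.062) rose and Egln2 (0.04 ± 0.06) was not called in the authors' deposited table. Vhl fell by 0.30 ± 0.085 in the authors' deposited table, and Arnt2, a partner of the alpha subunits, by 0.63 ± 0.071. In all, 4 of 9 rose and 2 fell (44.4% and 22.2%, beside 20% and 25.3% of all genes). RNA levels say nothing of the amount of HIF protein, and the sources used here do not give the oxygen level of the cultures.

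**Figure D2:**
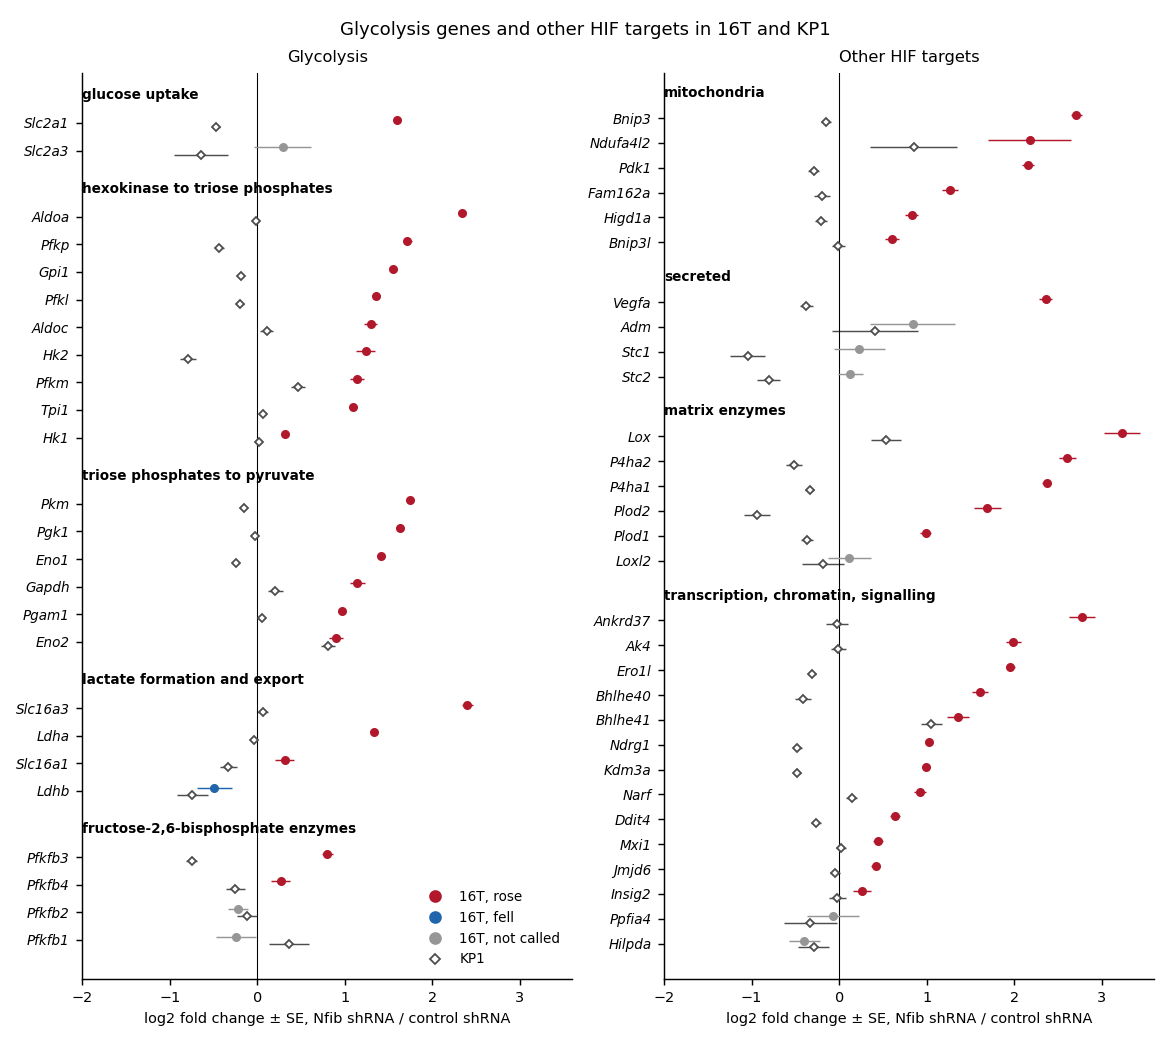
Log2 fold change ± SE of the glycolysis genes (left) and of other HIF targets (right), ordered within each role, in 16T (filled circles: red rose, blue fell, grey not called) and KP1 (open diamonds). Most filled circles lie to the right of 0 and of their diamonds, while Eno2 has nearly the same value in both lines.

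HIF binds a short core within hypoxia response elements, ACGTG or GCGTG, so the RefSeq promoter windows (GRCm38.p6, 250 bases before to 50 after a start) of the genes tested were searched for it on both strands. ACGTG was in 24.8% of the 13554 windows of genes tested, in 46.3% of the 41 windows of glycolysis genes and in 44.1% of the 34 windows of the other HIF targets. The looser pair, ACGTG or GCGTG, was in 60.9%, 75.6% and 79.4%. Among all genes that rose by at least 1, 22.5% of windows held ACGTG. Shown here are the 250 bases before the start of 5 HIF targets that rose by 2 or more, picked after their values and matches were seen, read 5′ to 3′ on the gene's strand with both cores of either strand in capitals.
Bnip3, chr7:138909507-138909756, minus strand: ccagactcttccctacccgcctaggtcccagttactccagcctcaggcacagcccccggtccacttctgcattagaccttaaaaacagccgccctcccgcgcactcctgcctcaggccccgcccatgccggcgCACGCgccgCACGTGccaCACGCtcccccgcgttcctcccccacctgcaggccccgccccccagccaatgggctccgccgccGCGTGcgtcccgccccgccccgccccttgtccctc
Ankrd37, chr8:45999851-46000100, minus strand: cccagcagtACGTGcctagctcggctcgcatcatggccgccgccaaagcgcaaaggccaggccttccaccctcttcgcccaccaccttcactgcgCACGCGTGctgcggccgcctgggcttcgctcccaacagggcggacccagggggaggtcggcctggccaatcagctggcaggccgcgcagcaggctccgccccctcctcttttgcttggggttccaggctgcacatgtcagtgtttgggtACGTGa
P4ha1, chr10:59323046-59323295, plus strand: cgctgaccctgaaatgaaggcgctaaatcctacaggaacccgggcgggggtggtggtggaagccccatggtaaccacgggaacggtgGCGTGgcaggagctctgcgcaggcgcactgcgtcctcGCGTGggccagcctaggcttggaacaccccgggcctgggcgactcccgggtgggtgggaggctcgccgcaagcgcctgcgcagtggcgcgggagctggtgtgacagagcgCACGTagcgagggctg
P4ha2, chr11:54100674-54100923, plus strand: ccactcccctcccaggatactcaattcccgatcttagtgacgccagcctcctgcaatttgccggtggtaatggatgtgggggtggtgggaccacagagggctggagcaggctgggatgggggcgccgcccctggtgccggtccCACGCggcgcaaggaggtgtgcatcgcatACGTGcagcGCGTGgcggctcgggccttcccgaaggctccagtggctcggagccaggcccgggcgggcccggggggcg
Slc16a3, chr11:120948817-120949066, plus strand: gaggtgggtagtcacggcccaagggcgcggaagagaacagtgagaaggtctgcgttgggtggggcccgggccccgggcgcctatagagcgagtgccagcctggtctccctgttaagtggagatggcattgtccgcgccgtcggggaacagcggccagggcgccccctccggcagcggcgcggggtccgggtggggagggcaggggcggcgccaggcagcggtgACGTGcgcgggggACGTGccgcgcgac
In the 250 bases shown, Bnip3 has 5 matches, 4 of them close together, and Ankrd37 has 4. Overlapping matches on the 2 strands are counted apart. The matches of Bnip3 at 108 and 107 bases before the start share 1 stretch, CACGTG, and those of Ankrd37 at 155 and 152 share CACGCGTG. P4ha1 and P4ha2 have 3 matches each, and Slc16a3 has 2, both ACGTG within 27 bases of the start. A match is a description of letters and not a site at which binding was measured. The full NFI palindrome, TTGGC and GCCAA with 5 bases between, was in 4 of the 13554 windows and in none of the windows of genes that changed by at least 1. Its first part, TTGGC, was in 49.8% of all windows, in 44.3% of those of genes that rose by at least 1 and in 55.7% of those that fell by that much. The cAMP response element TGACGTCA was in 3.04%, 2.75% and 0.880% of them.

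Of 7 pentose phosphate genes, 0 rose and 5 fell (0% and 71.4%, beside 20% and 25.3% of all genes), with a median of -0.32. Taldo1, the transaldolase, fell by 1.03 ± 0.05 in the authors' deposited table, and G6pdx, the entry enzyme, by 0.44 ± 0.073. Of 11 glycogen genes, 3 rose and 0 fell (27.3% and 0%), among the rises the phosphorylase gene Pygl (2.53 ± 0.48) and the synthase gene Gys1 (0.75 ± 0.069) in the authors' deposited table. In the tricarboxylic acid (TCA) cycle 10 of 13 genes fell and 0 rose (76.9% and 0%). Idh3a, a subunit of isocitrate dehydrogenase, was at -0.67 ± 0.052 and Suclg1, of succinate-CoA ligase, at -0.51 ± 0.079 in the authors' deposited table.

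Among whole lists, the respiratory chain had the largest share of falls. In it 48 of 76 genes fell and 3 rose (63.2% and 3.95%, beside 25.3% and 20% of all genes), with a median of -0.24. The falls were small, and 0 of them reached 1 on the log2 scale. They were spread over the chain: 22 of 35 genes of complex I, 2 of 4 of complex II, 6 of 10 of complex III with cytochrome c, 8 of 12 of complex IV and 10 of 15 of the ATP synthase fell. Ndufa4, now counted with complex IV, had the lowest value, -0.68 ± 0.045 in the authors' deposited table, and Cycs, cytochrome c, followed at -0.67 ± 0.049. For the ATP synthase the lowest was Atp5g1, of the membrane ring, at -0.57 ± 0.056 in the authors' deposited table, and for complex I Ndufa11 at -0.51 ± 0.099. The 3 that rose were Ndufv3 (0.45 ± 0.076), Cox7a2l (0.32 ± 0.05), which joins complexes into supercomplexes, and Atp5g2 (0.23 ± 0.039) in the authors' deposited table.

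Most genes of the secretory granule rose. Of 19 granin and prohormone processing genes, 14 rose and 3 fell (73.7% and 15.8%, beside 20% and 25.3% of all genes), with a median of 0.60. Of the granins, the matrix proteins of dense-core granules, Scg2 rose the most in the authors' deposited table (2.12 ± 0.05), Vgf had 1.07 ± 0.093, and Chga, the classic chromogranin, fell (-0.39 ± 0.036). The prohormone convertase genes Pcsk2 and Pcsk1 were at 1.52 ± 0.067 and 1.20 ± 0.052 in the authors' deposited table, and the genes of the amidating enzyme Pam and the carboxypeptidase Cpe at 0.52 ± 0.042 and 0.40 ± 0.035. Granule membrane genes rose likewise, in the authors' deposited table Resp18 (1.51 ± 0.058), Ptprn2 (1.36 ± 0.052) and Ptprn (1.20 ± 0.042), but Cadps (-0.61 ± 0.075) and Cadps2 (-0.35 ± 0.045), which prime granules for release, fell.

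Among the genes of catecholamine synthesis and storage, 5 of 13 rose and 3 fell (38.5% and 23.1%, beside 20% and 25.3% of all genes). Beside Th, the authors' deposited table had the vesicular monoamine transporter gene Slc18a1 at 1.79 ± 0.11 and Gch1, the first enzyme of the cofactor tetrahydrobiopterin, at 0.69 ± 0.052. The last enzyme of that cofactor, Spr, fell by 1.45 ± 0.17 in the authors' deposited table, and Dbh and Pnmt, which make noradrenaline and adrenaline, had no adjusted p. The peptide genes themselves were mixed. In the authors' deposited table Cartpt (2.62 ± 0.18) and Calca, the calcitonin and CGRP gene (1.31 ± 0.049), rose, and Grp, gastrin-releasing peptide (-2.46 ± 0.32), and Crh, corticotropin-releasing hormone (-1.88 ± 0.31), fell. Of 23 peptide genes measured, 12 were too low for an adjusted p.

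The exocytosis machinery had 25 rises and 5 falls among 44 genes (56.8% and 11.4%, beside 20% and 25.3% of all genes), with a median of 0.23. Stx1a, the syntaxin of the release site, rose by 2.74 ± 0.32 and the calcium sensor gene Syt7 by 1.94 ± 0.044 in the authors' deposited table, whereas the complexin gene Cplx1 fell by 1.10 ± 0.12. Rab3b (1.55 ± 0.13), a granule GTPase gene, led its group in the authors' deposited table. Of 52 cation channel genes, 27 rose and 9 fell (51.9% and 17.3%), with a median of 0.30. The calcium channels, which trigger release, had 10 rises and 1 fall among 16 (62.5% and 6.25%). In the authors' deposited table the largest rise after Cacna2d4 was Cacna1i (1.73 ± 0.41) and the fall was Cacna2d2 (-0.997 ± 0.11). Among potassium channel genes Kcnh1 (2.53 ± 0.39) rose the most and Kcnh8 (-1.71 ± 0.15) fell the most in the authors' deposited table. The receptor tyrosine kinase gene Ret rose together with the gene of its co-receptor Gfra1 (2.07 ± 0.20, authors' deposited table), while the ligand gene Gdnf had no adjusted p.

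Of 25 transcription factor genes of the neuroendocrine lineage tested, 7 rose and 12 fell (28.0% and 48.0%, beside 20% and 25.3% of all genes), with a median of -0.23. None rose by 1 or more: the largest rise in the authors' deposited table was that of Nkx2-1, the lung lineage factor, at 0.64 ± 0.051. The lowest value among the falls was -1.27 ± 0.39 for Lhx3 in the authors' deposited table, a call lost under the t distribution, and Pou3f2 (-1.20 ± 0.29), Neurog3 (-1.18 ± 0.33) and Pou4f1 (-0.76 ± 0.12) were next among those named. The central factor gene Insm1 fell by 0.19 ± 0.039 in the authors' deposited table, and Neurod1 (-0.47 ± 0.25) was not called.

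At the cell surface, of 16 classical cadherin genes, 5 rose and 5 fell (31.2% each, beside 20% and 25.3% of all genes). Beside Cdh1, the authors' deposited table gave 1.92 ± 0.38 for Cdh3, the P-cadherin gene next to it on chromosome 8, and -1.12 ± 0.092 for Cdh11. Of 41 genes of junctions and keratins, 10 rose and 10 fell, 24.4% each, which is near the shares of all genes (20% and 25.3%). By role, 2 of 8 desmosome genes rose and 3 fell, and 3 of 15 tight junction genes rose and 4 fell. Of 18 keratin and epithelial surface genes, 5 rose and 3 fell. Among the desmosome falls in the authors' deposited table were Pkp1 (-1.71 ± 0.12), a plakophilin, and Dsp (-1.37 ± 0.098), desmoplakin. The tight junction gene Ocln (-0.93 ± 0.19) and the epithelial marker gene Epcam (-0.55 ± 0.051) fell there too. The keratin genes of simple epithelia rose in the authors' deposited table, with Krt8 at 0.95 ± 0.11 and Krt18 at 0.72 ± 0.05. Of 11 genes of mesenchymal transition 1 rose (9.09%) and 0 fell. The rise was that of Cd44 (0.39 ± 0.12, authors' deposited table), with its call lost under the t distribution, and Vim was not called (-0.51 ± 0.22).

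Matrix and semaphorin genes were called at shares near those of all genes (20% rose, 25.3% fell), so their counts say nothing particular of these lists. Of 47 collagen, laminin and integrin genes, 11 rose and 14 fell (23.4% and 29.8%), with the collagen gene Col6a1 (2.04 ± 0.47) the largest rise, Itga8 the largest fall and Col15a1 (-1.73 ± 0.37) the largest fall of a collagen gene, in the authors' deposited table. Of 31 semaphorin, plexin and neuropilin genes, 8 rose and 10 fell (25.8% and 32.3%); the membrane semaphorin gene Sema4g (1.57 ± 0.11) and the receptor gene Plxnd1 (1.35 ± 0.089) rose, and beside Sema3c the plexin gene Plxnb3 (-1.86 ± 0.28) fell, in the authors' deposited table. Of 34 ephrin, netrin and slit genes, 12 rose and 13 fell (35.3% and 38.2%), from Epha2 (1.69 ± 0.16) to the ephrin ligand gene Efna4 (-1.60 ± 0.31) in the authors' deposited table. Dcc, the netrin receptor, was at 1.01 ± 0.11 and its ligand gene Ntn1 at -1.10 ± 0.22 in the authors' deposited table.

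Of 55 DNA replication genes tested, 31 fell and 2 rose (56.4% and 3.64%, beside 25.3% and 20% of all genes), with a median of -0.19 and no fall of 1 or more. The falls numbered 26 on recentring and 25 under the t distribution. Among polymerase, clamp and nucleotide genes 19 of 26 fell, such as Pole2, a subunit of polymerase epsilon (-0.55 ± 0.084), and Tyms, which makes thymidylate (-0.47 ± 0.049), in the authors' deposited table. Of the genes that license origins, 9 of 15 fell, Orc1 the most (-0.61 ± 0.13, authors' deposited table), though the calls of Mcm4, Mcm7 and Cdt1 were lost on recentring. Mitosis genes, with 12 rises and 9 falls among 45, were near the shares of all genes. Of 7 inhibitors of cyclin-dependent kinases 5 rose and 0 fell (71.4% and 0%). Cdkn1a, the p21 gene, stood at 1.31 ± 0.092 and Cdkn1b at 0.36 ± 0.057 in the authors' deposited table. Among cyclins, kinases and E2F genes 8 of 16 fell and 2 rose, with Cdk4 at -0.38 ± 0.031 and E2f8 at 0.58 ± 0.061 in the authors' deposited table. Mycl, a MYC-family gene (mean 242149), fell by 1.27 ± 0.03 in the authors' deposited table, and Myc was not called (0.37 ± 0.26).

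Feedback genes of the ERK kinase pathway had 11 rises and 1 fall among 15 (73.3% and 6.67%, beside 20% and 25.3% of all genes), with a median of 0.54. Dusp6, the ERK phosphatase gene, was at 1.44 ± 0.099 and the transcription factor gene Etv1 at 1.08 ± 0.087 in the authors' deposited table. The 26 immediate early genes had 12 rises and 4 falls (46.2% and 15.4%), from Egr1 (1.58 ± 0.11) to Dusp2 (-1.30 ± 0.32) in the authors' deposited table. The unfolded protein response had 13 rises and 0 falls among 20 genes (65.0% and 0%), all under 1, such as the chaperone gene Hspa5 (0.40 ± 0.033) and Herpud1 (0.65 ± 0.07) in the authors' deposited table. Of the integrated stress response, 12 rose and 6 fell among 23 (52.2% and 26.1%). Trib3 and Vldlr, at 1.64 ± 0.09 and 1.71 ± 0.13, rose, while the serine synthesis genes Phgdh (-0.53 ± 0.06) and Psat1 (-0.29 ± 0.039), which belong to the same list, fell, in the authors' deposited table.

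In lipid synthesis 21 of 44 genes rose and 9 fell (47.7% and 20.5%, beside 20% and 25.3% of all genes). The genes of SREBP control and lipid uptake had 7 rises and 0 falls among 11 (63.6% and 0%), including the exporter gene Abca1 (1.41 ± 0.14) in the authors' deposited table. The desaturase genes Scd1 (0.99 ± 0.20) and Scd2 (0.63 ± 0.039) rose, but Fasn, fatty acid synthase (-0.52 ± 0.035), and Acaca, which makes its substrate (-0.46 ± 0.047), fell, in the authors' deposited table. Wnt pathway genes had 7 rises and 3 falls among 22 (31.8% and 13.6%), most of them of secreted modulators. In the authors' deposited table Wnt11 (2.84 ± 0.41), Dkk2 (2.34 ± 0.20), Notum (2.21 ± 0.15) and Wif1 (1.89 ± 0.23) rose with Wnt4, and Sfrp2 (-1.80 ± 0.37) and Sfrp1 (-1.48 ± 0.20) fell. Of 15 Notch pathway genes, 4 rose and 5 fell (26.7% and 33.3%), near the shares of all genes (20% and 25.3%). The ligand gene Dll4 was at -1.51 ± 0.075 and the target gene Hes1 at 1.15 ± 0.29 in the authors' deposited table. In complement and coagulation 7 of 19 rose and 2 fell (36.8% and 10.5%), with C3, F5, the complement inhibitor gene Cd59a (1.60 ± 0.23) and the tissue factor gene F3 (1.48 ± 0.18) among the rises in the authors' deposited table. In the Eya and Dach network 4 of 10 genes rose and 3 fell, in the interferon response 6 of 19 rose and 3 fell, and in YAP and TEAD signalling 0 of 10 rose and 3 fell; in lists this small such counts are read against the 20% of all genes that rose and the 25.3% that fell, and give no result about these lists. Ribosomal protein genes had 14 rises and 20 falls among 74 (18.9% and 27.0%) and a median of 0.00 that is -0.0005 unrounded and turns above 0 on recentring.

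**Figure D3:**
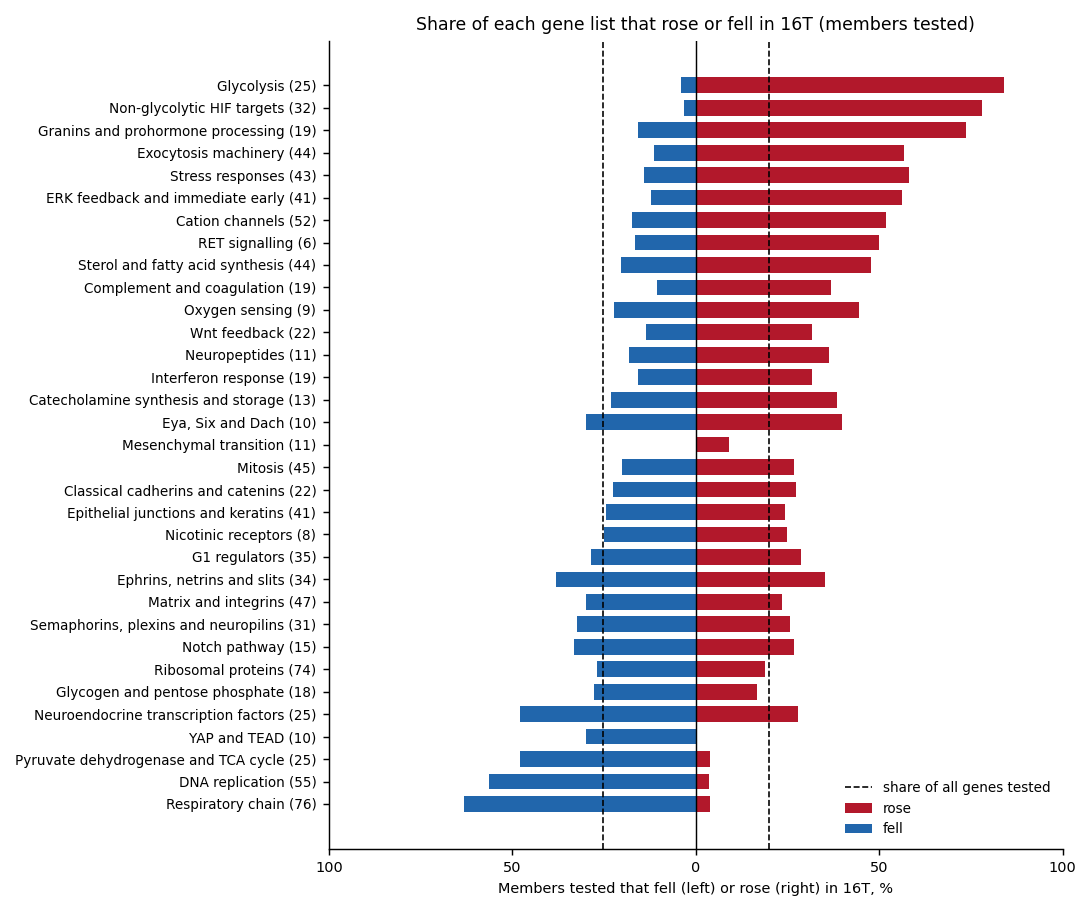
For each gene list, bars give the share of members tested that fell (blue, left) or rose (red, right) in 16T, with the number tested in brackets and dashed lines at the shares of all genes tested (25.3% fell, 20% rose). Glycolysis (84.0% rose) is at the top and the respiratory chain (63.2% fell) at the bottom; lists were not tested as sets.

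The effects of the hairpin in 16T were set against those in KP1, with no sample in common. The change of Nfib in KP1 is not reported here, so the differences below are not set against how far Nfib was lowered in each line. The difference of the log2 fold changes, 16T minus KP1, was tested in 15008 genes with a mean of at least 10, and 4417 differed (29.4%), 16T above KP1 in 2097 (14%) and below in 2320 (15.5%). Under the t distribution 1870 differed. Of the 6574 genes changed in 16T, 2693 changed in the same direction in KP1, which is 41.0% of the genes changed in 16T and 49.9% of the 5402 changed in KP1. Another 659 changed in the opposite direction, and 3222 had no call in KP1. In KP1, 17.6% of the genes tested rose and 19.6% fell.

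Glycolysis and HIF genes had other values in KP1. There 2 of the 25 glycolysis genes rose and 10 fell, and 20 of 25 had a 16T value above that in KP1 by the test, with 0 below. For the other HIF targets 3 rose and 16 fell in KP1, and 23 of 32 were above KP1 and 0 below. Bnip3 differed by 2.86 ± 0.08 (adjusted p = 1.42e-276), being 2.71 in 16T and -0.15 in KP1 in the authors' deposited table, and Slc2a1 was 1.60 and -0.48. Respiratory chain genes went the other way, 47 of 76 below KP1 and 2 above, and 31 of them rose and 9 fell in KP1. DNA replication genes were below KP1 in 33 of 55 and above in 2, sterol and fatty acid genes above in 23 of 44 and below in 3, and granin and processing genes above in 12 of 19 and below in 3. Of the 76 genes of catecholamines, granules and exocytosis together, 27 were above KP1 and 13 below. Neuropeptide genes were above in 2 of 11 and below in 3, and nicotinic receptor genes above in 0 of 8 and below in 3. Single genes of secretion and its receptors that rose in both lines, and more in 16T by the test, included Th, Ret, Scg2 and Pcsk2.

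Of genes with a mean of at least 100 that changed in both lines, Gsdma, a gasdermin gene, differed the most: it was 2.85 ± 0.27 in 16T and -1.35 ± 0.15 in KP1 in the authors' deposited table, a difference of 4.20 ± 0.31. Cdh1 rose in both lines, 4.83 ± 0.13 and 1.20 ± 0.068 in the authors' deposited table, and differed by 3.64 ± 0.14. Opposite directions were also seen, with differences in brackets, in Ndrg2 (3.61 ± 0.17), the selenium-binding protein gene Selenbp1 (3.18 ± 0.13), the matrix gene Npnt (3.26 ± 0.18), Cartpt (3.17 ± 0.24) and P4ha2 (3.12 ± 0.13), each of which rose in 16T and fell in KP1. The urea transporter gene Slc14a1 fell in both, less in 16T (3.31 ± 0.27). In the other direction, the transglutaminase gene Tgm2 (-3.13 ± 0.40), Notum (-2.65 ± 0.25) and the arginase gene Arg2 (-2.23 ± 0.37) rose in both lines and less in 16T. The genes that fell in 16T and rose in KP1 were the homeobox gene Dlx5 (-2.92 ± 0.43), Cdhr1 (-2.53 ± 0.15), the sialyltransferase gene St3gal1 (-2.18 ± 0.13) and Sox2 (-2.17 ± 0.22), a stem cell factor gene. Of these, the 16T falls of Dlx5, Cdhr1 and Sox2, and that of Slc14a1, lost their calls under the t distribution. Vwa2 fell in both and more in 16T (-2.05 ± 0.21).

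**Figure D4:**
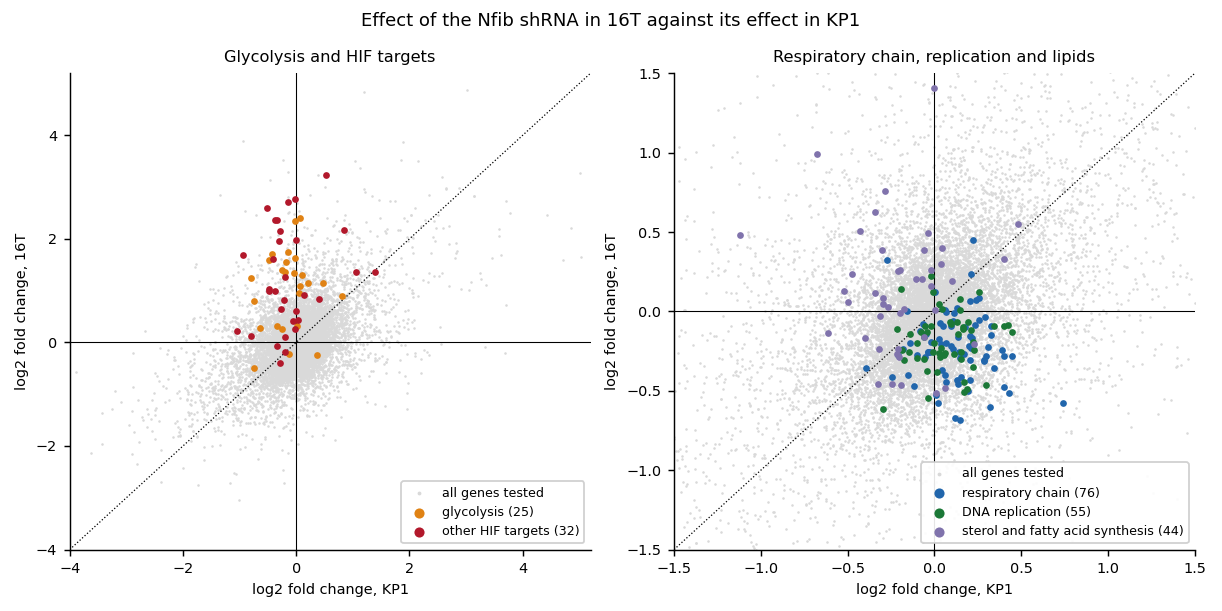
Log2 fold change in 16T against that in KP1 for all genes tested (grey) and for glycolysis and HIF targets (left) or respiratory chain, DNA replication and lipid synthesis genes (right), with equal values on the dotted line; 2 and 600 genes lie outside the axes. Glycolysis and HIF genes lie mostly above the line, near 0 or below in KP1, and respiratory chain and replication genes mostly below it.

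Neighbouring genes that both changed by at least 1 did so mostly in the same direction. Of 14471 pairs of tested genes next to each other on a chromosome, 102 were such pairs, 89 of them in the same direction (49 both rose, 40 both fell) and 13 in opposite directions. In 64 of the 89 the gap was under 50000 bases, overlaps included, but some of the 102 lie far apart, such as Cdh8 and Cdh11 (3216523 bases). The share of all neighbouring pairs with the same direction was not counted, so whether these pairs exceed it was not tested. In 9 of the 89 the intervals, each from first to last exon, overlap. Features with a joined name were left out, but whether reads of these pairs can be told apart without strand was not tested. How strand was treated is not given in the sources used here. Of pairs that changed by at least 2 there were 4, namely the nicotinic receptor genes Chrna3 and Chrnb4 on chromosome 9, 2.05 ± 0.17 and 2.73 ± 0.18, Padi4 and Padi3 on chromosome 4, 2.17 ± 0.48 and 2.96 ± 0.32, Tcf7l1 and Gm15401 on chromosome 6, 2.82 ± 0.25 and 2.40 ± 0.39, whose intervals overlap, and 4932411E22Rik and Ankfn1 on chromosome 11, -2.75 ± 0.46 and -2.02 ± 0.45, in the authors' deposited table. The third gene of the nicotinic cluster, Chrna5, was not called (-0.31 ± 0.40, authors' deposited table).

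Around Mycl on chromosome 4 several genes fell by similar amounts; they were chosen after their values were seen. In the authors' deposited table Cap1 (122859228 to 122885881, mm10; mean 192475) had -1.13 ± 0.041, Mfsd2a -1.26 ± 0.14, Mycl -1.27 ± 0.03, Bmp8b -1.21 ± 0.10 and Oxct2b -1.19 ± 0.24. The genes Ppt1 (-0.65 ± 0.036) and Trit1 (-0.30 ± 0.048), in the same stretch, fell less in the authors' deposited table. Oxct2b lies inside the interval of Bmp8b, so reads of this pair may be shared. Mycl and Bmp8b fell in KP1 as well, at -1.41 and -1.58, whereas Cap1 was at 0.00 there (adjusted p = 1). Also chosen after their values were seen were genes below a mean of 100 with large changes. Olfr1328, an olfactory receptor gene on chromosome 4 (118933899 to 118934840), fell by 6.79 ± 0.48 in 16T in the authors' deposited table at a mean of 57.6 over all libraries, and was at 0.09 ± 0.49 in KP1. On the same chromosome lie Slc2a1 (119108745 to 119137329), which rose, and Ermap (119175457 to 119190011), which fell by 2.71 ± 0.52 in the authors' deposited table. Slc17a1 had -4.22 ± 0.52 and Mgarp, a mitochondrial protein gene, 3.89 ± 0.35 in the authors' deposited table.

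Markers of other cell types had means of 495 (Kdr) or less over all libraries, apart from Pdgfra (2220) and the endothelial gene Vwf (2353). Of 8 leukocyte markers 1 was tested, Cd68, and 6 had means under 10, with Ptprc, the pan-leukocyte gene, at 1.38. Of 8 fibroblast markers 5 were tested, with Col3a1 at 0, and of 8 airway and alveolar markers 4, with Scgb1a1 at 0. Of the 14 tested over these groups and endothelium, 3 rose and 2 fell (21.4% and 14.3%, beside 20% and 25.3% of all genes). The rises were Pdgfra, Pdgfrb and Dcn, with the calls of Pdgfra and Dcn lost under the t distribution, and the falls were Kdr and Sftpc. The summed means were 175 for leukocytes, 2764 for fibroblasts, 3051 for endothelium and 524 for airway and alveoli, beside 132718 for the 7 neuroendocrine markers. Values per group are not in the table, so whether other cells moved with a result was not tested. Exons kept under a joined name gave a further reading of some genes from other bases of the same libraries: of 93 such features of genes that changed by at least 1, 91 had the same sign as their gene, 68 were called in its direction and 0 in the other. Of all 3508 joined features tested, 860 were called (24.5%).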

How the data were processed

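RNA was measured by sequencing of total RNA (Qiagen RNAeasy and Illumina TruSeq v2 kits, per the labels' protocols) in 12 samples, of which 4 of 16T and 4 of KP1 are used here. The submitters' processing notes name TopHat, bedtools, DESeq, DESeq2 and the build mm10, without roles or versions, and the table's name mentions cqn, a normalization for GC content and length. The authors deposited 1 table of results, whose direction was read from Nfib: a mean normalized count per feature (a signal averaged over the fitted libraries), log2 fold changes with SEs, test statistics (a score) and raw and adjusted p-values. They also deposited a test against a log2 change of 0.5, and exon intervals on mm10. Counts per library are not analysed here, so depth is unknown and no count model was run. The deposited p equals the normal p of effect over SE within 1% in 100% of genes tested, and no adjusted p is given below a mean of 15.7. Features with 1 gene name hold 93.7% of the summed means.

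From these values the difference 16T minus KP1 was computed as effect over the root of the summed squared SEs, tested against the normal distribution and adjusted by Benjamini-Hochberg over 15008 genes, in Python 3.11.15 with pandas 2.3.3, numpy 2.4.6 and scipy 1.17.1 (figures in matplotlib 3.10.9). On simulated tables of these 15008 genes with 200 changed, it recovered 71.65% of differences of 1 and 49.35% of differences of 0.5. False calls were 4.501% and 5.263%. The noise simulated was normal, the deposited SEs were taken as exact, and the test used the same SEs. False shares near 0.05 were thus set in advance. They do not give the share of false calls among the 4417 differences, where the SEs are estimates with 2 libraries a group. Alternatives were recentring, a t distribution of 6 degrees of freedom (12 libraries in 6 groups), a mean minimum of 100, a size limit of 1, the authors' 0.5 test and inclusion of joined features. Genes to name were drawn, not all of them printed, from Nfib, the 20 largest rises and falls with a mean of at least 100, list members, the 8 largest differences from KP1 each way among genes called in both lines, and neighbouring pairs that changed by at least 2. Genes below a mean of 100, those around Mycl and the 5 promoters were added after their values were seen. The members and all gene lists were chosen with earlier results of these data known. Positions are those of mm10, and promoters are RefSeq windows of GRCm38.p6, the same build, found for 10624 of 14504 genes tested. Some listed genes are counted in their lists but not reported one by one here.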

Additional observations from a re-analysis of the deposited data

Results flagged for a closer look

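The changes in 16T and KP1 were tested against each other, and 4417 of 15008 genes differed at an adjusted p below 0.05 (normal reference, Benjamini-Hochberg), and 1870 under a t distribution of 6 degrees of freedom. With 2 libraries a group and no values per library, the number of samples showing each direction is unknown. The largest differences in log2 fold change, 16T minus KP1, among genes changed in both lines were 4.20 for Gsdma, 3.64 for Cdh1, 3.61 for Ndrg2, 3.31 for Slc14a1, 3.26 for Npnt, 3.18 for Selenbp1, 3.17 for Cartpt and 3.12 for P4ha2. In the other direction they were -3.13 for Tgm2, -2.92 for Dlx5, -2.65 for Notum, -2.53 for Cdhr1, -2.23 for Arg2, -2.18 for St3gal1, -2.17 for Sox2 and -2.05 for Vwa2. In 6 lists over 50% of the members tested differed in 1 direction. The 16T value was above that of KP1 in 20 of 25 glycolysis genes, 23 of 32 other HIF targets, 12 of 19 granin and processing genes and 23 of 44 sterol and fatty acid genes. It was below in 47 of 76 respiratory chain genes and 33 of 55 DNA replication genes.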

How the results depend on the processing

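No paired analysis was possible because the authors' table holds no values per library, so neither a replicate block nor leaving out a library was run, and depth limits cannot be given. The 6574 changed genes (2907 rose, 3667 fell) were 923 (545 and 378) with a change of at least 1, 807 (529 and 278) by the authors' test against 0.5, 6524 (3511 and 3013) recentred on the median gene, 4613 (2122 and 2491) under a t distribution of 6 degrees of freedom, 6420 with a mean of at least 100 and 7434 with joined features. The 4417 differences from KP1 were 1870 under the t distribution, 4344 recentred and 4375 with a mean of at least 100. These counts do not say whether the same genes remained, and the cause of each shift was not tested. Of 1052 named or listed genes tested, 118 lost their call under the t distribution; recentring took 33 calls, added 30 and changed the sign of 39.

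Recentred, the genes that fell were 0 for glycolysis, 0 for other HIF targets, 1 for complement and coagulation, 3 for Notch and 13 for ribosomal proteins, and those that rose were 3 for pyruvate dehydrogenase and the TCA cycle and 22 for ribosomal proteins. Medians below 0 turned above it for cadherins and catenins together and classical cadherins alone (both 0.010033), catenins (0.03995), the Eya and Dach network (0.00139981), spindle genes (0.0483578), all ribosomal proteins (0.0508079) and their small subunit (0.0082216), and the medians of mitosis and of line identity genes moved to 0.0612223 and 0.0989515. Under the t distribution, the genes that fell were 0 for glycolysis, other HIF targets and complement, 1 for nicotinic receptors and for YAP, 3 for cadherins and for Notch, 9 for matrix and 13 for ribosomal proteins. Those that rose were 2 for neuropeptides, 0 for mesenchymal transition and DNA replication and 1 for markers of other cells.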
